A study of Mus musculus with 12 samples.

Results

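The genes examined here encode coagulation and complement factors that the liver makes and secretes into plasma. Of 34 genes listed by symbol, 32 had a probe set naming that gene alone, among 18194 genes measured in the series. Where several probe sets named a gene, the brightest on average was read, and Cpb2 and C3 were not analysed here. Livers of 12 male mice were profiled, 1 Affymetrix mouse genome array per mouse, with 3 mice in each of 4 groups. All mice were kept on the 129J background and a regular diet. The groups were wild-type (WT) mice aged 6 or 24 months and mice with a whole-body knockout of Iqgap2 (KO) aged 6 or 24 months. The KO 24 months samples are labelled as hepatocellular carcinoma (HCC) tumor and the other 3 groups as normal liver, so age and tumor cannot be told apart within the KO mice. Differences are given on the log2 scale of the deposited intensities, where 1 unit is a doubling. A gene was called changed when its limma p-value, adjusted over all genes by the Benjamini-Hochberg method, was below 0.05.

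Hepatocytes are the main source of these proteins. Clotting proceeds by a chain of serine proteases, each secreted as an inactive precursor, that ends with thrombin cutting fibrinogen into fibrin; plasma inhibitors restrain the chain and plasmin dissolves the clot. Complement is a second protease chain, started by antibody complexes, by lectins that bind microbial sugars, or by spontaneous turnover, and its terminal components assemble a pore in the target membrane.

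The labels could not be taken at face value. Iqgap2 itself was 8.32 ± 0.07 (SD, n = 3) under the label WT 6 months and 8.29 ± 0.34 under KO 6 months. It was 12.17 ± 0.21 under WT 24 months and 12.12 ± 0.06 under KO 24 months tumor. The targeted gene thus went against the label in both the WT 6 months and the KO 24 months tumor arrays. Afp, a fetal liver gene often re-expressed in HCC, was 12.79 ± 0.66 in those WT 6 months arrays and 5.85 to 7.62 in the other 9 arrays. The deposited labels are kept below, and each direction is that of the labels. Member counts and medians with these 2 labels exchanged are given in a later paragraph. Differences of single genes are given under the deposited labels. The 8 measured hepatocyte markers (Alb, Ttr and others) gave a summed log2 level of 17.65 to 17.85 in all 12 arrays, and all 8 stood above the level of 6 taken here as dim. Replicate 3 of the arrays labelled WT 24 months stood apart in its Kupffer cell markers, with a summed level of 15.15 against 10.97 to 12.48 elsewhere, and replicate 2 of that group in several members described below.

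The members differed from the arrays labelled WT 6 months more than they differed among the other 3 groups. So did genes in general: 9% of all genes were higher in KO 6 months over WT 6 months, and 0.341% in KO 24 months tumor over WT 24 months. Of the 32 members, 23 had their lowest group mean in the arrays labelled WT 6 months. The share of all genes with their lowest mean there was not counted. In KO 6 months over WT 6 months, 9 members were higher and 2 lower, that is 28.1% and 6.25% of the members, while 9% of all genes were higher and 8.04% lower. The members' median difference was 0.28, beside 0.05 for all genes. In WT 24 months over WT 6 months, 9 members were higher and 0 lower (Pros1 alone was lower before adjustment), where 6.22% of all genes were higher and 7.07% lower, with a median of 0.34 beside 0.01. The 9 became 4 with only these 2 groups in the fit and 3 with arrays centred on housekeeping genes. Both comparisons share the arrays labelled WT 6 months, so their agreement is no independent evidence. F7, Serpind1, Masp1, Masp2, C8b and C8g were the 6 members called in both. Leaving out WT 6 months replicate 3 lowered the first median to 0.14.

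**Figure D1:**
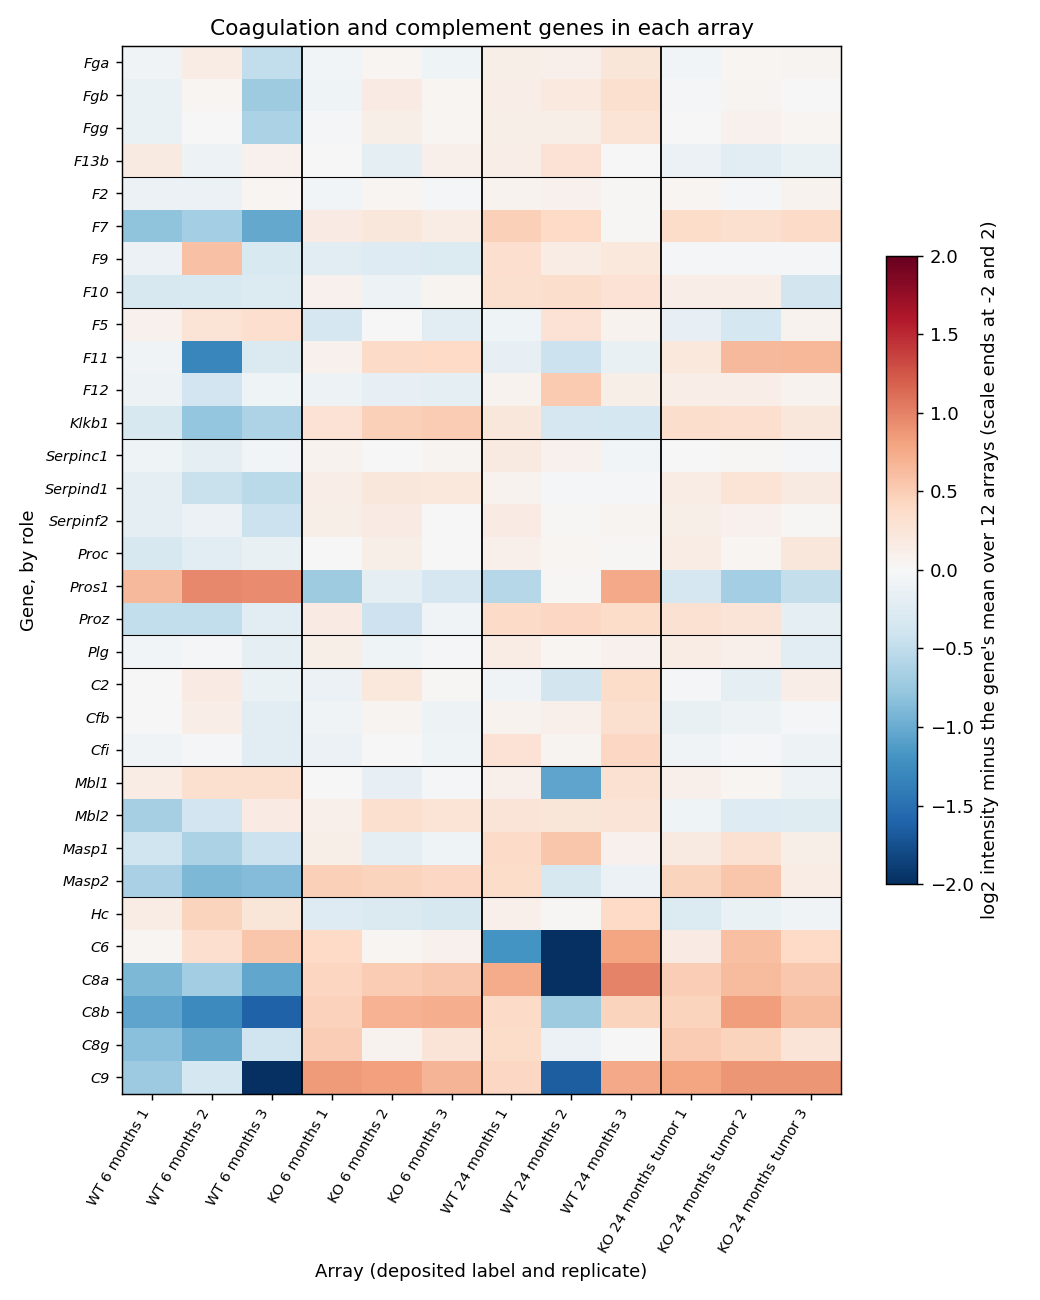
The log2 intensity of each of the 32 members in each of the 12 arrays, as the difference from that gene's mean over all arrays, with genes grouped by role and arrays by deposited label. The 3 arrays labelled WT 6 months are low in F7, Masp2, C8a, C8b, C8g and C9 and high in Pros1, and WT 24 months replicate 2 is low in Mbl1, C6, C8a, C8b and C9.

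In both comparisons with WT 6 months the largest differences among the members were in terminal complement genes. The promoters of 5 genes are shown first, because these genes moved furthest or moved against the rest and because C8a and C8b are direct neighbours on chromosome 4. Each line is the 250 bases before the annotated RefSeq start in GRCm38.p6, read 5′ to 3′ on the gene's strand. Capitals mark matches on either strand to motif letters searched for: GTTAATNAT for HNF1, CAAAGTCCA or CAAAGTTCA for HNF4, TTNNGNAAN for C/EBP, TATAAA for the TATA box and TTCCNGGAA for STAT3.
Hc, chr2:35061413-35061662, minus strand: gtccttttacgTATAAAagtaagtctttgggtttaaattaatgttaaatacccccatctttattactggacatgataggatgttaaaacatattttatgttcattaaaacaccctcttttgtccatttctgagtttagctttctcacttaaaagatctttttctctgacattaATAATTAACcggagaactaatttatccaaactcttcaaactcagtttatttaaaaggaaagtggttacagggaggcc
C8a, chr4:104876399-104876648, minus strand: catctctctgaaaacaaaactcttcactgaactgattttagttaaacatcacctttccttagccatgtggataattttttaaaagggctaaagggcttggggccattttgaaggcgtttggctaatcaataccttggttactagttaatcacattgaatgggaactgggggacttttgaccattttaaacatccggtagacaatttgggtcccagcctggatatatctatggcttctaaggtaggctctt
C8b, chr4:104766067-104766316, plus strand: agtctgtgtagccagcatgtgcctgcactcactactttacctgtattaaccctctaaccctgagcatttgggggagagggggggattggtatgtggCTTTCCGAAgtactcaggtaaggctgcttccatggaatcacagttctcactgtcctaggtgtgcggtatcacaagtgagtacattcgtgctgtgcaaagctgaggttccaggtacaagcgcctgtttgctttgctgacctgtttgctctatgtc
C9, chr15:6445096-6445345, plus strand: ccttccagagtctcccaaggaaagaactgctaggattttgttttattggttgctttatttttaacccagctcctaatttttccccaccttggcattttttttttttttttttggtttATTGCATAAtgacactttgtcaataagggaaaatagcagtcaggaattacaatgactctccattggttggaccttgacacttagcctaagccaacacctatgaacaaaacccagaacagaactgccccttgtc
Pros1, chr16:62854057-62854306, plus strand: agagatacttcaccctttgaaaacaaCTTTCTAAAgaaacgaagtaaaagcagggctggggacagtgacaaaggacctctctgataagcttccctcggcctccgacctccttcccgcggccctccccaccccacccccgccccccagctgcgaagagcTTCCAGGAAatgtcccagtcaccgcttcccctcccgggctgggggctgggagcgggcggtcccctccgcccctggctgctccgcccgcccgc

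The Hc sequence holds the HNF1 letters as ATAATTAAC and the TATA box letters. The C8b sequence holds the C/EBP letters as CTTTCCGAA and the C9 sequence holds them as ATTGCATAA, whereas the C8a sequence holds none of the 5 motifs. The Pros1 sequence holds the C/EBP letters as CTTTCTAAA and the STAT3 letters as TTCCAGGAA. RefSeq gave a promoter for 28 of the 34 listed genes, 29 promoters in all, each of 300 bases with 50 bases past the start included. Of these 29, the HNF1 letters were in 3 (Fga, F13b and Hc), or 10.3%, beside 0.801% of all 32851 promoters. The STAT3 letters were in 2 (Fga and Pros1), or 6.90%, beside 1.15%. The C/EBP letters were in 16, or 55.2%, beside 40.6%, the TATA box letters in 3 (Hc, Klkb1 and C3), or 10.3%, beside 13.6%, and the HNF4 letters in 1 (Serpind1), or 3.45%, beside 0.861%. The C/EBP letters are loose enough that they can overlap the other motifs. These are letter matches in a fixed window and were not tested against the expression values.

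C8b and C8g encode the beta and gamma chains of the eighth component, which anchors the membrane pore. C8b was 10.47, 10.26 and 9.91 in WT 6 months, 11.98, 12.22 and 12.26 in KO 6 months, 11.91, 10.81 and 11.98 in WT 24 months, and 11.98, 12.37 and 12.16 in KO 24 months tumor. The arrays labelled WT 6 months lay below all the others, and WT 24 months replicate 2 lay between them and the rest. C8b was higher in KO 6 months than in WT 6 months by 1.94 (SE 0.27, limma adjusted p = 0.000623), and higher in WT 24 months than in WT 6 months by 1.35 (SE 0.27, adjusted p = 0.00662). The second call was lost when only the 2 groups compared were fitted (adjusted p = 0.0809).

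C8g was 12.43, 12.23 and 12.86 in WT 6 months, 13.75, 13.33 and 13.52 in KO 6 months, 13.63, 13.14 and 13.25 in WT 24 months and 13.77, 13.70 and 13.53 in KO 24 months tumor. The WT 6 months arrays overlapped with none of the other groups. The differences were 1.02 (SE 0.18, adjusted p = 0.00263) for KO 6 months and 0.83 (SE 0.18, adjusted p = 0.0103) for WT 24 months, each over WT 6 months. The second was lost with only the 2 groups fitted and with centring on housekeeping genes (adjusted p up to 0.0792).

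C8a, the alpha chain, was 11.93, 12.13 and 11.79 in WT 6 months, 13.25, 13.33 and 13.37 in KO 6 months and 13.32, 13.46 and 13.36 in KO 24 months tumor, so WT 6 months lay below both labelled KO groups, which overlapped. In WT 24 months it was 13.56, 10.57 and 13.82, and the value of replicate 2 was the lowest of all 12 arrays. With that array in the fit C8a missed the test, at 1.37 (SE 0.63, adjusted p = 0.168) in KO 6 months over WT 6 months and 0.70 (SE 0.63, adjusted p = 0.562) in WT 24 months over WT 6 months. Without WT 24 months replicate 2 the differences were 1.37 (SE 0.11, adjusted p = 2.66e-05) and 1.74 (SE 0.13, adjusted p = 1.84e-05).

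C9, which polymerises to form the pore, was 12.11, 12.49 and 9.49 in WT 6 months, 13.69, 13.66 and 13.52 in KO 6 months, 13.25, 11.20 and 13.61 in WT 24 months and 13.63, 13.73 and 13.73 in KO 24 months tumor. It was low in WT 6 months replicate 3 and again in WT 24 months replicate 2. The difference of KO 6 months over WT 6 months was 2.26 (SE 0.72, adjusted p = 0.0534), the largest of any member in this comparison but not past the test. It passed without WT 24 months replicate 2 (adjusted p = 0.0239), and also without WT 6 months replicate 2 or WT 24 months replicate 3, with dim genes left out, and with median or housekeeping centring (adjusted p = 0.0293 to 0.0483).

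The remaining terminal genes did not follow this pattern. Hc, which encodes the fifth component and so the first protein of the pore, was 13.72, 14.01 and 13.82 in WT 6 months, 13.31, 13.29 and 13.24 in KO 6 months, 13.67, 13.59 and 13.97 in WT 24 months and 13.30, 13.44 and 13.50 in KO 24 months tumor. It was lower in KO 6 months than in WT 6 months by 0.57, with a difference of -0.57 (SE 0.12, adjusted p = 0.00684), and the 2 groups did not overlap. In WT 24 months over WT 6 months the difference was -0.11 and did not pass. C6, an intermediate component, was 11.33 to 12.09 in 10 of the arrays and 10.09 and 9.07 in WT 24 months replicates 1 and 2. No comparison of C6 passed with all arrays. Without WT 24 months replicate 3, C6 was lower in WT 24 months than in WT 6 months, at -2.03 (adjusted p = 0.00047), and higher in KO 24 months tumor than in WT 24 months, at 2.10 (adjusted p = 0.00642).

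**Figure D2:**
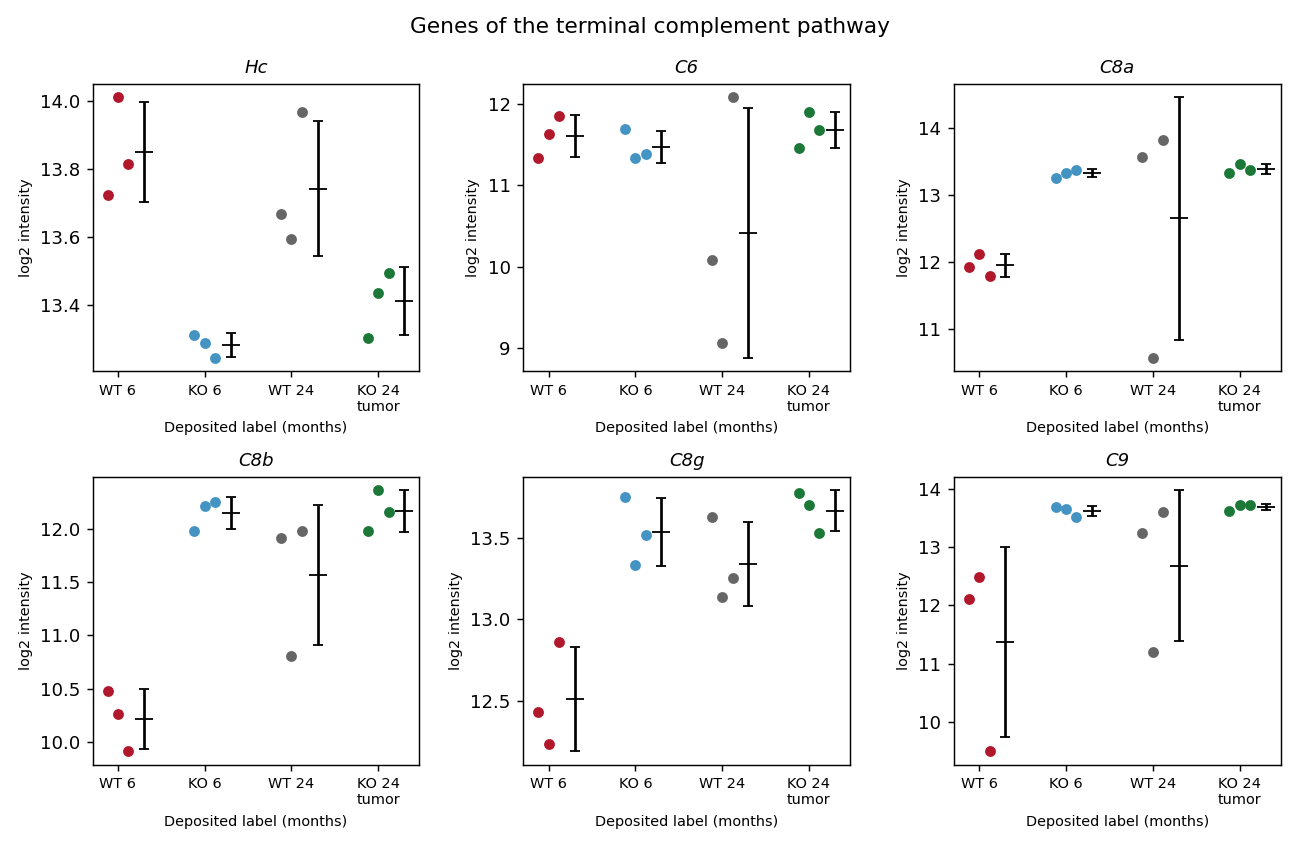
Log2 intensity of the 6 terminal complement genes by deposited label, with 1 point per array and bars giving the mean ± SD of 3 arrays. C8b and C8g are lowest in the 3 arrays labelled WT 6 months, Hc is high in them, and WT 24 months replicate 2 (middle grey point) is far below its group in C8a and C9.

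Among the lectin pathway genes both proteases were low in the arrays labelled WT 6 months. Masp2, the protease that cleaves C4 and C2, was 10.09, 9.85 and 9.88 there, 11.22, 11.19 and 11.15 in KO 6 months, 11.11, 10.43 and 10.62 in WT 24 months and 11.18, 11.30 and 10.90 in KO 24 months tumor. The WT 6 months arrays were below all the others. Masp2 was higher by 1.25 (SE 0.16, adjusted p = 0.000442) in KO 6 months and by 0.78 (SE 0.16, adjusted p = 0.00915) in WT 24 months. The second was lost with only the 2 groups fitted and with centring on housekeeping genes (adjusted p up to 0.0844). Masp1, which activates Masp2, was 10.36, 10.13 and 10.33 in WT 6 months, 10.89, 10.57 and 10.68 in KO 6 months, 11.14, 11.32 and 10.85 in WT 24 months and 10.95, 11.07 and 10.89 in KO 24 months tumor. Again no other array reached down to the WT 6 months values. The difference was 0.83 (SE 0.13, adjusted p = 0.00185) in WT 24 months and 0.44 (SE 0.13, adjusted p = 0.0444) in KO 6 months, and the second missed the test when any of 10 of the 12 arrays was left out (adjusted p up to 0.152). It was kept when probe sets were averaged. The other Masp1 probe sets had means of 7.85, 7.80, 5.63 and 4.89 in WT 6 months. In KO 6 months these were 8.98, 8.97, 6.20 and 5.08.

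Mbl1 and Mbl2 encode lectins that recognise mannose, and neither was called in a comparison of 2 groups. Mbl2 was 11.53, 11.81 and 12.36 in WT 6 months, 12.30, 12.52 and 12.47 in KO 6 months, 12.45, 12.44 and 12.45 in WT 24 months and 12.12, 11.94 and 11.96 in KO 24 months tumor. Its change with age, labelled KO minus labelled WT, was -0.97 (SE 0.24, adjusted p = 0.0421), a call lost when any of 11 of the 12 arrays was left out (adjusted p up to 0.105). In comparisons with WT 6 months Mbl2 lay near the threshold. With dim genes left out it was higher in KO 6 months (adjusted p = 0.043) and in WT 24 months (adjusted p = 0.0436), and with a trended and robust prior in KO 6 months (adjusted p = 0.0493). Without WT 6 months replicate 3, it was higher in KO 6 months (adjusted p = 0.00218) and in WT 24 months (adjusted p = 0.0022) than in WT 6 months. Mbl1 lay between 11.82 and 12.30 in 11 arrays and at 10.93 in WT 24 months replicate 2, and passed no test. Of the central components, C2, Cfb and Cfi, none passed in KO 6 months over WT 6 months, where their differences lay between -0.01 and 0.04. Other, less bright C2 probe sets had means of 10.43 and 10.27 in WT 6 months and 10.01 and 10.10 in KO 6 months. C2 ranged over the 12 arrays from 9.86 to 10.59 and Cfb, which forms a C3-cleaving enzyme, from 12.75 to 13.28. Cfi, the protease that inactivates C3b and C4b, was higher in WT 24 months than in WT 6 months by 0.36 (SE 0.10, adjusted p = 0.0407), which was lost without any of 11 of the 12 arrays (adjusted p up to 0.129).

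The coagulation proteases differed from gene to gene. F7, which starts clotting together with tissue factor, was 10.51, 10.64 and 10.30 in WT 6 months, 11.49, 11.55 and 11.47 in KO 6 months, 11.79, 11.73 and 11.35 in WT 24 months and 11.68, 11.65 and 11.71 in KO 24 months tumor. The arrays labelled WT 6 months lay below all 9 others. F7 was higher by 1.02 (SE 0.13, adjusted p = 0.000286) in KO 6 months and by 1.14 (SE 0.13, adjusted p = 0.000161) in WT 24 months, and both calls held when each array in turn was left out. Its change with age, labelled KO minus labelled WT, was -0.96 (SE 0.18, adjusted p = 0.0103), a call lost with centring on housekeeping genes (adjusted p = 0.12). F7 and Mbl2 were the 2 of 32 members with a called difference of this kind, beside 4.83% of all genes. Leaving out WT 24 months replicate 2 or replicate 3 made this count 4.

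F10 lies next to F7 on chromosome 8 and Proz next to F10, and each was read separately. F10, the protease that makes thrombin, was 12.55 to 12.59 in WT 6 months and 13.15 to 13.23 in WT 24 months, higher by 0.62 (SE 0.13, adjusted p = 0.00803), and its difference of 0.32 in KO 6 months over WT 6 months missed the test (adjusted p = 0.118) but passed when its probe sets were averaged (adjusted p = 0.00972) or without KO 24 months tumor replicate 3 (adjusted p = 0.0285). Proz, a cofactor of a factor X inhibitor, was 10.49 to 10.77 in WT 6 months and 11.35 to 11.41 in WT 24 months, higher by 0.79 (SE 0.16, adjusted p = 0.00788). In KO 6 months over WT 6 months Proz missed the test at 0.29 (adjusted p = 0.262). It passed there at 0.51 (adjusted p = 0.0499) when its probe sets were averaged. The calls of F10 and Proz in WT 24 months over WT 6 months were lost with centring on housekeeping genes (adjusted p = 0.127 for F10 and 0.053 for Proz). F2, which encodes prothrombin, ranged over the 12 arrays from 13.83 to 14.03 and F9 from 11.84 to 12.73, and neither passed a test with all arrays. F9 was higher in WT 24 months than in WT 6 months without WT 6 months replicate 2 (adjusted p = 0.022).

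F11 and Klkb1 are neighbours on the same chromosome and encode contact pathway proteases. Klkb1, or plasma prekallikrein, was 11.66, 11.21 and 11.37 in WT 6 months, 12.27, 12.46 and 12.50 in KO 6 months, 12.22, 11.65 and 11.64 in WT 24 months and 12.34, 12.32 and 12.21 in KO 24 months tumor. It was higher in KO 6 months than in WT 6 months by 0.99 (SE 0.16, adjusted p = 0.00182), while WT 24 months overlapped with WT 6 months. F11 was 10.36, 9.14 and 10.15 in WT 6 months and 10.53, 10.82 and 10.83 in KO 6 months, higher by 0.84 (SE 0.26, adjusted p = 0.0487). That call was lost when any of 10 of the 12 arrays was left out (adjusted p up to 0.138), and without the low replicate 2 of WT 6 months the difference was 0.47. F5, a cofactor of thrombin formation, and F12, which starts the contact pathway, were not called, at 12.19 to 12.87 and 11.86 to 12.77 over the 12 arrays. F5 was lower in KO 6 months than in WT 6 months, at -0.44 (adjusted p = 0.0244), when its probe sets were averaged. F12 in WT 24 months over WT 6 months passed with averaged probe sets (adjusted p = 0.0465), with dim genes left out (adjusted p = 0.0433) and without replicate 1 or replicate 3 of WT 24 months.

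Pros1, which encodes protein S, the cofactor of activated protein C, moved the opposite way. It was 10.18, 10.49 and 10.48 in WT 6 months, 8.81, 9.33 and 9.20 in KO 6 months, 8.96, 9.56 and 10.28 in WT 24 months and 9.19, 8.85 and 9.05 in KO 24 months tumor. WT 6 months was above both labelled KO groups without overlap, and WT 24 months spanned the range between them. Pros1 was lower in KO 6 months than in WT 6 months, with a difference of -1.27 (SE 0.27, adjusted p = 0.00796). In WT 24 months over WT 6 months it was -0.78 (SE 0.27, adjusted p = 0.0841), and -1.12 (adjusted p = 0.00366) without WT 24 months replicate 3.

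The inhibitors of clotting and of plasmin showed smaller differences. Serpind1, heparin cofactor II, was 12.23 to 12.57 in WT 6 months and 12.73 to 13.03 in the other 9 arrays, higher by 0.58 (SE 0.10, adjusted p = 0.00232) in KO 6 months and by 0.39 (SE 0.10, adjusted p = 0.0233) in WT 24 months. Both calls were lost with centring on housekeeping genes (adjusted p = 0.0908 for the first). The second was also lost with median centring, with only the groups compared in the fit, and without WT 6 months replicate 2, WT 6 months replicate 3 or WT 24 months replicate 1 (adjusted p up to 0.467 over these settings). Serpinf2, the plasmin inhibitor, was higher in KO 6 months than in WT 6 months by 0.34 (SE 0.10, adjusted p = 0.0426), lost without any of 8 of the 12 arrays (adjusted p up to 0.142). Serpinc1 (antithrombin) at 14.07 to 14.43 and Proc (protein C) at 12.76 to 13.30 were not called, nor was Plg, the precursor of plasmin, whose values lay between 14.08 and 14.45. Proc was higher in KO 6 months (adjusted p = 0.039) and in WT 24 months (adjusted p = 0.0333) than in WT 6 months when probe sets of each gene were averaged, and in WT 24 months with dim genes left out (adjusted p = 0.0478).

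**Figure D3:**
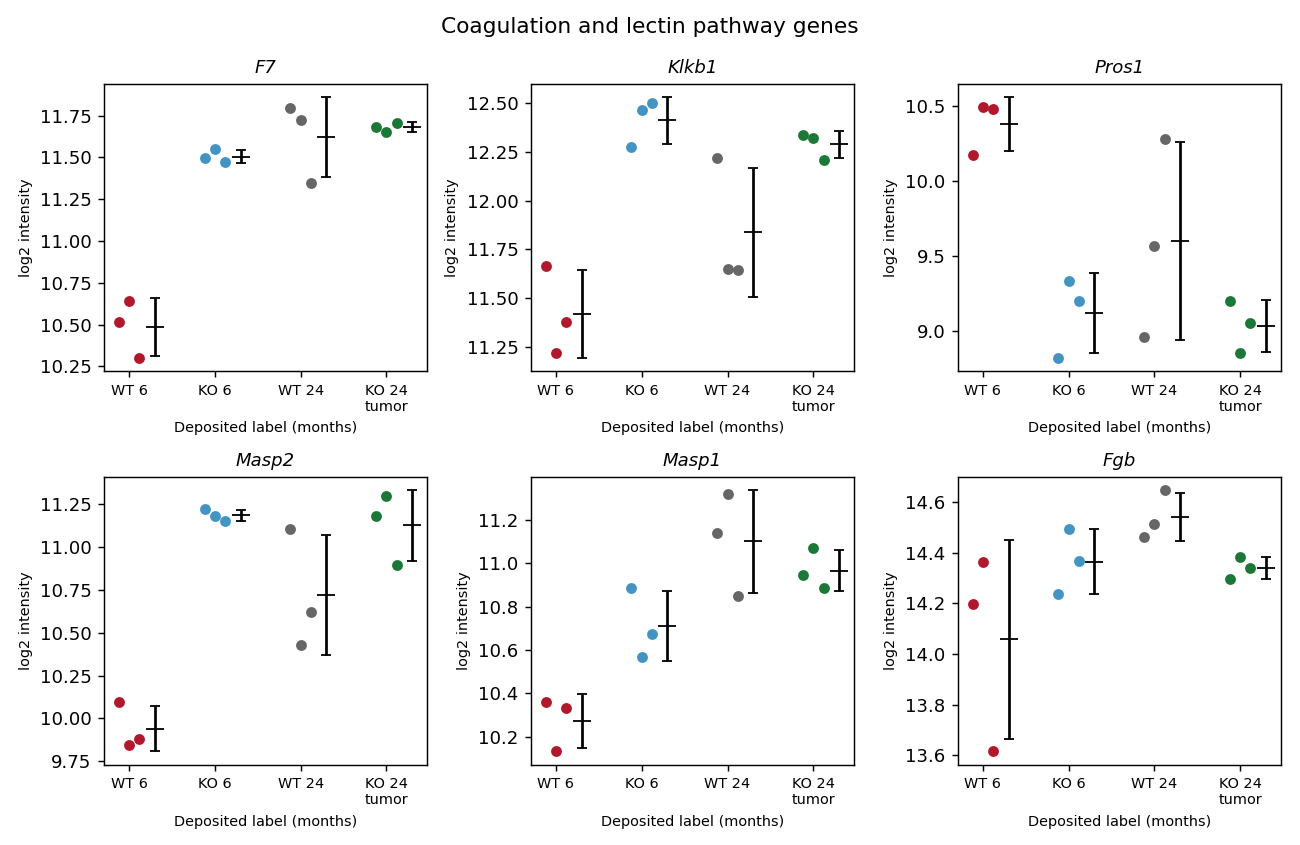
Log2 intensity of F7, Klkb1, Pros1, Masp2, Masp1 and Fgb by deposited label, with 1 point per array and bars giving the mean ± SD of 3 arrays. F7, Masp2 and Masp1 are lowest in all 3 arrays labelled WT 6 months, Pros1 is highest in them apart from WT 24 months replicate 3, and Fgb overlaps between WT 6 months and the 2 labelled KO groups.

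The 3 fibrinogen genes, next to each other on chromosome 3, passed no test with all arrays. Fga was 14.43, 14.65 and 14.01 in WT 6 months, 14.46, 14.55 and 14.43 in KO 6 months, 14.62, 14.60 and 14.75 in WT 24 months and 14.45, 14.54 and 14.56 in KO 24 months tumor. Fgb was 14.20, 14.36 and 13.61 in WT 6 months, 14.24, 14.49 and 14.37 in KO 6 months, 14.46, 14.51 and 14.65 in WT 24 months and 14.30, 14.38 and 14.34 in KO 24 months tumor. Fgg was 14.33, 14.46 and 13.84 in WT 6 months, 14.44, 14.58 and 14.51 in KO 6 months, 14.58, 14.59 and 14.74 in WT 24 months and 14.46, 14.55 and 14.51 in KO 24 months tumor. WT 6 months replicate 3 was the lowest array and WT 24 months replicate 3 the highest for all 3 genes. F13b, the carrier subunit of the factor that cross-links fibrin, lay between 11.62 and 12.12 in the 12 arrays and passed no test.

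In KO 6 months over WT 6 months the differences were 0.11 for Fga, 0.31 for Fgb and 0.30 for Fgg (adjusted p = 0.65, 0.236 and 0.178). In WT 24 months over WT 6 months they were 0.30, 0.48 and 0.43 (adjusted p = 0.217, 0.0787 and 0.0715). Fgb and Fgg passed there without WT 6 months replicate 2 (adjusted p = 0.0304 and 0.0321). In KO 24 months tumor over WT 24 months the differences were negative, at -0.14, -0.20 and -0.13 (adjusted p = 0.635, 0.554 and 0.665). In KO 24 months tumor over KO 6 months they ran from -0.03 to 0.04. Fibrinogen belongs to the acute phase proteins, which the liver raises in inflammation. The summed level of 19 acute phase genes was 16.97 to 17.54 in WT 6 months, 17.11 to 17.14 in KO 6 months, 17.61 to 18.18 in WT 24 months and 17.10 to 17.23 in KO 24 months tumor. Replicate 3 was the lowest array of WT 6 months and the highest of WT 24 months on this list as well, and the part of this response in the fibrinogen values was not tested.

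**Figure D4:**
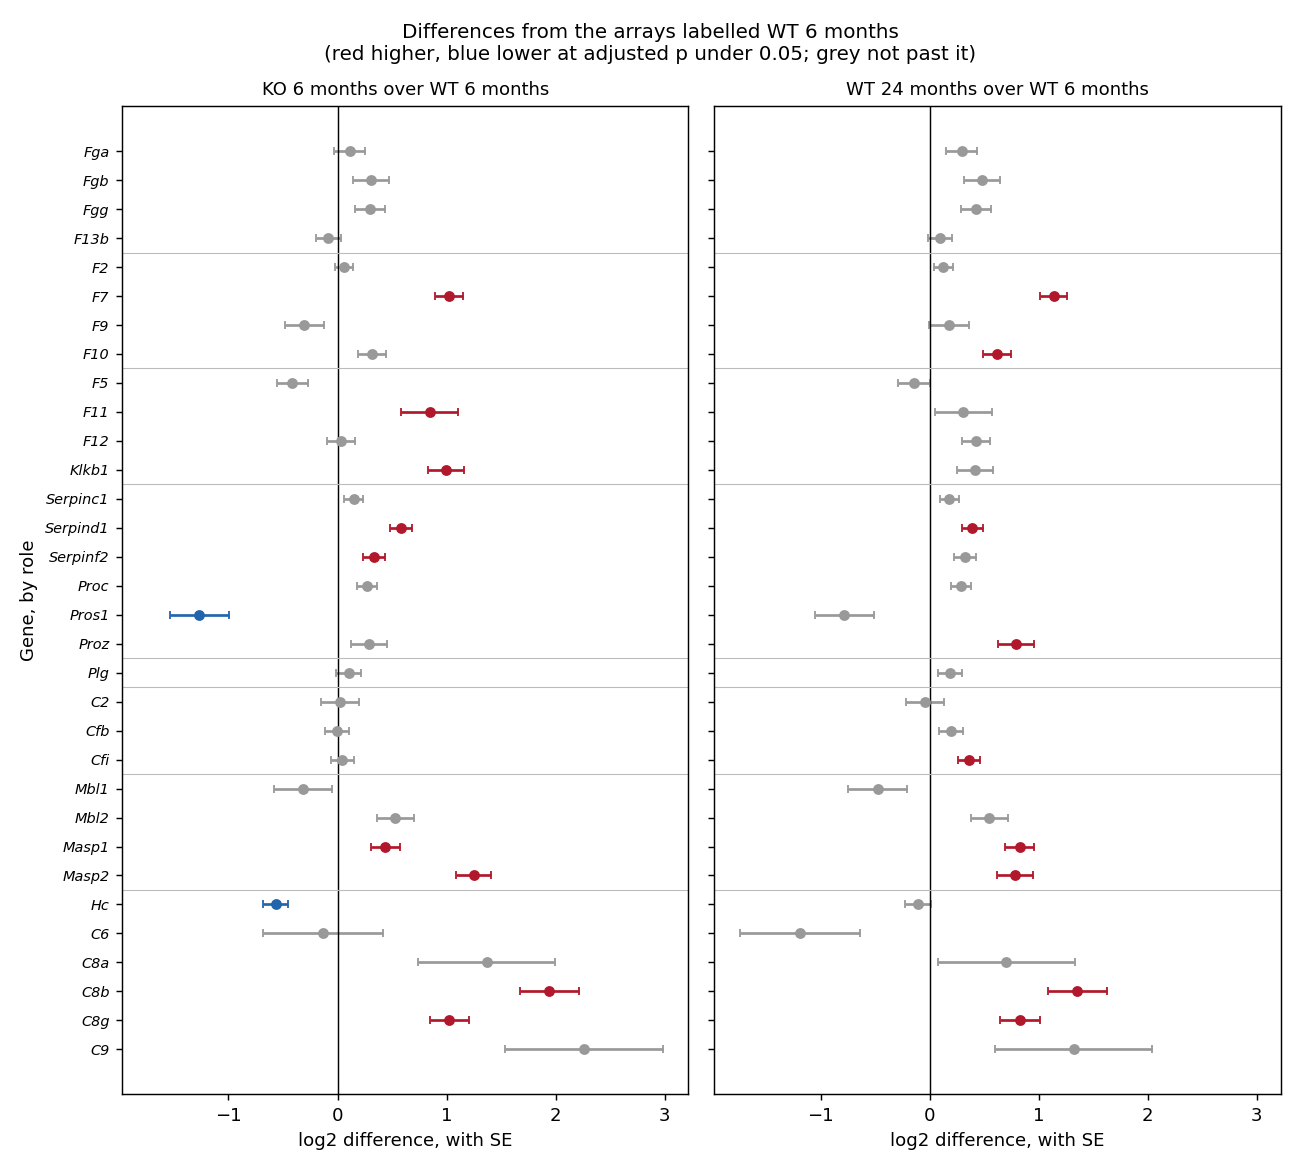
Log2 difference of each member, with its standard error, in KO 6 months over WT 6 months and in WT 24 months over WT 6 months, ordered by role. Red points are higher and blue points lower at an adjusted p under 0.05, and grey points did not pass it; both panels share the 3 arrays labelled WT 6 months.

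Without the arrays labelled WT 6 months, few differences were seen. In KO 24 months tumor over WT 24 months, limma called 0 members higher and 0 lower, beside 0.341% of all genes higher and 0.231% lower. Before adjustment, at p under 0.05, 5 members were higher and 6 lower, or 15.6% and 18.8%, beside 10.5% and 6.67% of all genes. The members' differences ran from -0.57 for Pros1 to 1.26 for C6, with a median of -0.07. Without WT 24 months replicate 1, Klkb1 was higher by 0.64 (adjusted p = 0.03), Masp2 was higher by 0.60 (adjusted p = 0.0374) and Pros1 was lower at -0.89 (adjusted p = 0.0493). In KO 24 months tumor over KO 6 months, 0 members were called higher and 0 lower, beside 0.033% of all genes higher and 0% lower. Before adjustment, at p under 0.05, 0 members were higher and 1 was lower (Mbl2, -0.43), or 0% and 3.12%, beside 3.33% and 2.71% of all genes. Here the members ran from -0.43 to 0.27. The 95% interval of the difference lay within 1 log2 unit of 0 for 29 of the 32 members, and it was wider for C6, C8a and C9.

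Exchanging these labels moves the counts to other comparisons. KO 24 months tumor over WT 24 months then had 0 members higher and 9 lower with a median of -0.34. Of all genes, 7.07% were then higher and 6.22% lower. KO 24 months tumor over KO 6 months had 2 members higher and 9 lower with a median of -0.28. Here 8.04% of all genes were higher and 9% lower. KO 6 months over WT 6 months then had 0 members called in either direction with a median of -0.03, and WT 24 months over WT 6 months had 0 higher with a median of 0.07. Of all genes, 0% were higher and 0.033% lower in the first of these, and 0.231% and 0.341% in the second. No label used here settles which reading is right.

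Genes of the same systems outside the 32 members were described from wider lists. Of 22 other coagulation and fibrinolysis genes measured, 3 were higher and 2 lower in KO 6 months over WT 6 months, and 4 were higher and 1 lower in WT 24 months over WT 6 months. For all genes the shares were 9% higher and 8.04% lower in the first comparison and 6.22% and 7.07% in the second. Plat, the tissue plasminogen activator, was 8.36, 8.34 and 8.14 in WT 6 months and 4.44 to 4.84 in the other 9 arrays, a difference of -3.59 (adjusted p = 1.43e-08) in KO 6 months over WT 6 months. Lman1, a cargo receptor that exports factors V and VIII from the endoplasmic reticulum, was 11.28, 10.99 and 11.14 in WT 6 months and 11.80 to 12.46 elsewhere, higher by 0.79 in KO 6 months (adjusted p = 0.000897). In KO 24 months tumor over WT 24 months, 1 gene of this list was higher and 0 lower, beside 0.341% and 0.231% of all genes. It was F3 or tissue factor, higher by 1.00 (adjusted p = 0.0258). F3 was 5.00, 4.65 and 4.83 in WT 24 months and 5.49, 6.03 and 5.94 in KO 24 months tumor. All its values but 6.03 lay below the level of 6 taken here as dim.

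Of 23 other complement genes measured, 5 were higher and 1 lower in KO 6 months over WT 6 months, and 5 were higher and 0 lower in WT 24 months over WT 6 months (1 was lower before adjustment), with the same shares of all genes as background. Colec10, a collectin that binds the Masp proteases, was 6.70, 5.40 and 5.50 in WT 6 months and 8.76 to 9.56 in the other 9 arrays, higher by 3.41 (adjusted p = 2.82e-05) in KO 6 months. Colec11, its partner, was 7.21 to 8.35 in WT 6 months and 9.47 to 10.81 elsewhere. Neither of these genes overlapped between WT 6 months and any other group.

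The summed levels of endothelial and stellate cell markers moved with the same arrays. The 7 endothelial markers had a summed level of 9.77 to 10.37 in WT 6 months and 11.11 to 11.96 in the other 9 arrays, and 6 of the 7 were higher in KO 6 months and in WT 24 months than in WT 6 months. The 6 stellate cell markers had 9.50 to 10.77 against 11.84 to 12.46, and 3 of the 6 (Reln, Dcn and Des) were higher in both comparisons. Their median level was 6.84 to 7.57 in WT 6 months, 7.85 to 8.10 in KO 6 months and 6.69 to 8.02 in WT 24 months. The other 3 were not called. Mean levels in WT 6 months, KO 6 months and WT 24 months were 5.72, 5.47 and 5.15 for Col1a1. They were 7.92, 8.77 and 7.74 for Col3a1 and 4.12, 5.44 and 4.99 for Lrat. Col1a1 was at or below 6 in every array. For all genes, 9% were higher in KO 6 months and 6.22% in WT 24 months. Fewer markers of other cell types were called. In KO 6 months over WT 6 months, 0 of 8 Kupffer and 0 of 2 neutrophil markers were higher. The lymphocyte list had 1 of 6 higher, and the biliary and platelet lists 1 of 4 each. These were Cd79a, Krt7 and Gp1bb, at or below 6 in every array. In WT 24 months over WT 6 months, 1 Kupffer and 1 biliary marker were higher. Of the 8 hepatocyte markers, 1 was higher in KO 6 months and 2 in WT 24 months, and none was lower. Their part in the members' differences was not tested, and in whole tissue fewer cells of a type and less RNA per cell cannot be told apart.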

How the data were processed

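The authors deposited log2 intensities of 45101 probe sets in 12 arrays. Per the labels and the study's methods they were made by RMA in R with simpleaffy (version and annotation not given in the sources used here), which subtracts background, makes the arrays share one distribution and summarizes probes, so global shifts between livers are removed. Array medians lay between 5.41 and 5.45. Groups came from the labels. Probe sets naming 1 gene (34958; 932 name several and 9211 none) gave 18194 genes, the brightest probe set standing for each. Genes were tested with limma 3.58.1 (R 4.3.3) over all 4 groups with Benjamini-Hochberg adjustment and a threshold of 0.05, a step tested on simulated data. The study's SAM was not run, and its fold of 3 is an alternative. Other alternatives were averaged probe sets, every probe set, dim genes left out, a trended and robust prior, centring on array medians or on 4 housekeeping genes, fitting only the groups compared, a replicate block and leaving out each array. With 3 arrays against 3, an exact two-sided permutation test of 1 gene cannot go below p = 0.1. The labels name biological replicates, 1 animal each, and same-numbered arrays are not known to be paired. Values are given for every array for the 4 members with the largest called differences per comparison, the fibrinogen genes and those moving against the rest; some further members were chosen after their values were seen. The members and lists were chosen with earlier results of these data known. Promoters came from RefSeq (GRCm38.p6), read with pandas 2.3.3 in Python 3.11.15, and figures from matplotlib 3.10.9. The number of arrays limits the precision.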

Additional observations from a re-analysis of the deposited data

Results flagged for a closer look

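For 2 of the 32 members the change with age differed between labelled KO and labelled WT mice by a limma test of that difference itself. Of all genes, 4.83% had such a difference, so the members were near the share of all genes. For F7 it was -0.96 (adjusted p = 0.0103), with the 3 arrays labelled WT 6 months below all others, and the call was lost with centring on housekeeping genes (adjusted p = 0.12). For Mbl2 it was -0.97 (adjusted p = 0.0421), with higher values in WT 24 months than in WT 6 months in all 3 arrays and lower values in KO 24 months tumor than in KO 6 months in all 3. The Mbl2 call was lost when any of 11 of the 12 arrays was left out (adjusted p up to 0.105). The differences of -0.96 and -0.97 stay as they are when WT 6 months is exchanged with KO 24 months tumor. The array orders given with them hold for the deposited labels only. With 3 arrays a group, single arrays were not tested as outliers.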

How the results depend on the processing

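With 1 array left out at a time, members called in KO 6 months over WT 6 months numbered 6 to 10 higher and 2 to 2 lower, with a median difference of 0.14 to 0.28. In WT 24 months over WT 6 months they numbered 8 to 11 higher and 0 to 2 lower (Pros1 and C6, without WT 24 months replicate 3), with a median of 0.27 to 0.38. In KO 24 months tumor over WT 24 months they numbered 0 to 2 higher and 0 to 1 lower, with a median of -0.12 to -0.04 (-0.035). In KO 24 months tumor over KO 6 months they were 0 throughout, with a median of 0.01 (0.008) to 0.04. Members whose age change differed by labelled genotype numbered 1 to 4.

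The fold of 3 left 1 higher and 0 lower in KO 6 months over WT 6 months, 0 higher in WT 24 months over WT 6 months and 0 differing by genotype. Fitting only the groups compared gave 4 higher in WT 24 months over WT 6 months. Centring on 4 housekeeping genes moved the median of all genes by -0.10 and -0.15 in the 2 comparisons with WT 6 months. Members' medians were then 0.18 and 0.19, WT 24 months over WT 6 months had 3 higher (F7, Masp1 and C8b) and 1 lower (Pros1), 0 differed by genotype, and the share of all calls that were higher fell from 52.8% to 33.1% and from 46.8% to 29.2%. Members differing by genotype were 5 when a gene's probe sets were averaged, 1 with every probe set tested and 1 with median centring. With the labels exchanged, the members in KO 6 months over WT 6 months were 0 higher and 0 lower (median -0.027), in KO 24 months tumor over WT 24 months 9 lower (median -0.34), in WT 24 months over WT 6 months 0 higher (median 0.073) and in KO 24 months tumor over KO 6 months 2 higher and 9 lower (median -0.28). The shares of all genes under the exchange are given in the Results. The cause was not tested.

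A replicate block made members differing by genotype 1. Of 18 same-numbered pairs of arrays, 2 had deviations correlated above 0.1, with correlations from -0.157 to 0.185. Of the 12 arrays, 5 correlated best with their own number. Same-numbered arrays are not known to be paired, and the block was not used in the main fit.

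Of the 11 calls in KO 6 months over WT 6 months, 7 were kept in all 20 settings other than the fold and the exchange (F7, Klkb1, Pros1, Masp2, Hc, C8b and C8g), and of the 9 in WT 24 months over WT 6 months, 2 were (F7 and Masp1).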

Other observations

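Of 19 acute phase genes, 7 were lower and 1 was higher in KO 6 months over WT 6 months, where 8.04% of all genes were lower and 9% higher. In WT 24 months over WT 6 months, 7 were higher and 0 lower, beside 6.22% and 7.07% of all genes. In KO 24 months tumor over WT 24 months, 0 were higher and 3 lower (Lcn2, Apcs and Mt2), beside 0.341% and 0.231%. In KO 24 months tumor over KO 6 months, 0 were higher and 0 lower, beside 0.033% and 0%. Lcn2, an iron-siderophore binding protein, was 12.57, 13.39 and 11.80 in WT 6 months, 6.11, 5.36 and 5.90 in KO 6 months, 10.71, 11.48 and 13.59 in WT 24 months and 6.42, 6.20 and 6.66 in KO 24 months tumor, a difference of -6.80 in KO 6 months over WT 6 months. Both labelled WT groups were above both labelled KO groups, an order that holds for the deposited labels only. Under the swap considered in the Results, the high arrays would all be from 24 months and the low arrays all from 6 months. Lcn2 would then divide by age and not by genotype. Hamp, the iron hormone hepcidin, was 10.10, 12.74 and 7.49 in WT 6 months and 13.48 to 14.54 in the other 9 arrays. It was the 1 gene of the list that was higher in KO 6 months, by 4.26.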
